A study of Mus musculus with 11 samples.

Results

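Among 111041 regions of open chromatin in mouse CD8 T cells, 23471 carried an ATAC-seq peak in all 11 libraries of the study, and 1825 of these (7.78%) were at least 2-fold less accessible, after centring, in effector cells than in naive cells. These 1825 regions, the always-open regions that fall on activation, were chosen by having a peak in all 11 libraries and by their effector and naive values. Their d is the log2 difference of effector minus naive normalized tag count (tags in a peak per 10 M tags of the library, with M for mega, plus 1). The median of that difference over all 32333 regions with a peak in both libraries, -0.71, was subtracted, and regions with d of at most -1 were kept. The difference between effector and naive cells is therefore a description of how the regions were selected and carries no test.

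ATAC-seq cuts and tags DNA where nucleosomes leave it accessible. All libraries came from CD8 T cells of mouse spleen in which YFP reports on Tcf7, whose product TCF-1 is a transcription factor of naive and memory cells. Antigen-experienced cells were sorted from the spleen as CD44+ CD62L+ YFP+ (1 library). Effector cells were activated in culture for 3 days (1 library). The day 9 cells had a first YFP sort at day 3, went back into culture and had a second sort at day 9. They were YFP-low and then YFP-high (low_to_high, 3 libraries), YFP-high both times (high_to_high, 2 libraries) or YFP-low both times (low_to_low, 3 libraries). Naive cells were sorted from the spleen as CD44- CD62L+ YFP+ (1 library). Nothing in the labels ties replicates to separate mice or cultures, so p-values measure only the spread between these libraries, which may be technical. The labels name neither the stimulus nor the age of the mice, and the effector cells carry no YFP gate in them.

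Naive T cells are kept quiet by factors such as TCF-1, LEF-1, FOXP1 and KLF2, and their genes for lymph node homing and survival are in an accessible state. Activation through the T cell receptor brings new factors to chromatin, reprograms metabolism and starts division, and many regulatory regions of the resting state then lose accessibility. Memory cells regain much of the resting programme while keeping traces of activation. Regions that never close to the point of losing their peak, but become weaker, are the subject here.

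At the chosen promoters the sequence can be shown, since 264 of the 1825 regions (14.5%) overlapped a promoter window, 250 bases before to 50 after a RefSeq start site. The 5 sequences are those of promoter regions with the lowest d. They are RefSeq sequences of build GRCm38.p6, the same assembly as mm10, written 5′ to 3′ on the strand of the gene. Capitals mark a match to 1 of 12 short motifs on either strand. The TCF/LEF letters are CTTTGA, which read TCAAAG on the other strand. The NFAT letters are TGGAAA, and the letters of the CTCF core are CCANNAGG.
Cnr2, chr4:135911430-135911729, plus strand: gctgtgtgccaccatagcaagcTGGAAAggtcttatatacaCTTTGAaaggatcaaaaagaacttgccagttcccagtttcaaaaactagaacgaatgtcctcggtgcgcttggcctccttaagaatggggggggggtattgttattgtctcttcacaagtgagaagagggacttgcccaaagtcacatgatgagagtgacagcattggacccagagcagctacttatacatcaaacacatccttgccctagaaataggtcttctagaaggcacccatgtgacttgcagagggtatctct
Gm20559, chr6:3346089-3346388, minus strand: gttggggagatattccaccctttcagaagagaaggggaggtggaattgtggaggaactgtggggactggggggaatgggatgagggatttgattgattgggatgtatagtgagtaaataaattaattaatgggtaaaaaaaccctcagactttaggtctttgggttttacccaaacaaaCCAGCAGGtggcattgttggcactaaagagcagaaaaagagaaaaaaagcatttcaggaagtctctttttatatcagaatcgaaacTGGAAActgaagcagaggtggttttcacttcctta
Trpm1, chr7:64185209-64185508, plus strand: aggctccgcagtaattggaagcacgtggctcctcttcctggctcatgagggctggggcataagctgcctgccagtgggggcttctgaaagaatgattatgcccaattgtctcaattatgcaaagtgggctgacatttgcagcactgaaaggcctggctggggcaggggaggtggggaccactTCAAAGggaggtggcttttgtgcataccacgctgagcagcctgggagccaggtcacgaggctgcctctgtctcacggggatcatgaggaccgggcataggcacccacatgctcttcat
Gm40441, chr12:72844379-72844678, minus strand: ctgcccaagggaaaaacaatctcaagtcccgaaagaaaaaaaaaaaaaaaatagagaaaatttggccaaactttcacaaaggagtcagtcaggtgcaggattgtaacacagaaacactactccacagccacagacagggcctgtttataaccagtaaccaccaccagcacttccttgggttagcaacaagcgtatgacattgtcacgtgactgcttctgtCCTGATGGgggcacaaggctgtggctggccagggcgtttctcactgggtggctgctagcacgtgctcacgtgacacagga
Txk, chr5:72752728-72753027, minus strand: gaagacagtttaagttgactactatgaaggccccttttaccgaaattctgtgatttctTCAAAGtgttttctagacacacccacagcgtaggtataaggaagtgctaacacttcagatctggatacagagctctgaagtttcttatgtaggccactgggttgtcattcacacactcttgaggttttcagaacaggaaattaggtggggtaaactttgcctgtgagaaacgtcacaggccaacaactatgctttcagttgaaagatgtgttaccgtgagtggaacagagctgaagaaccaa

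The promoters of Cnr2, Trpm1 and Txk each held the TCF/LEF letters, at bases 209, 68 and 192 before the start site, counted to the first base of the match. In the Cnr2 promoter the match lay outside the falling region, which began 83 bases before the start site. The Trpm1 match lay just inside the region, which ended 195 bases after the start, and the Txk match lay outside, since that region began 162 bases before the start. Over all 264 falling promoter regions, the TCF/LEF letters stood in the promoter windows of 46 (17.4%), against 12.8% of the 6561 other always-open promoter regions and 16.0% of all 32851 promoter windows. The ETS letters CCGGAA stood in 31.4% of the falling promoters, 35.3% of the other always-open promoters and 14.9% of all promoters. The SP letters GGGCGG, common in CpG-rich promoters, stood in 53.8% of the falling promoters, against 69.7% of the other always-open promoters and 35.7% of all promoters. The FOXO letters GTAAACA stood in 13 falling promoters (4.92%), against 2.39% of the other always-open promoters and 3.65% of all promoters. The GATA letters AGATAA stood in 9.85% of the falling promoters, 5.69% of the other always-open promoters and 11.2% of all promoters. Among the others, 241 promoter regions had d of at least 1. In these the TCF/LEF, ETS, SP and FOXO letters stood in 15.4, 12.9, 60.6 and 3.73%. The AP-1, RUNX, CTCF core and NFAT letters stood in 6.06, 16.3, 27.7 and 20.5% of the falling promoters. They stood in 4.82, 13.4, 23.4 and 16.7% of the other always-open promoters and 7.81, 16.8, 21.3 and 21.4% of all promoters. The KLF, E-box and CRE letters stood in 3.41, 10.6 and 3.41% of the falling promoters, against 4.02, 14.8 and 4.27% of the other always-open promoters. Over all promoters these were 3.56, 16.3 and 1.79%. A region may overlap more than 1 promoter window, whereas the share of all promoters counts single windows, so these shares differ in unit. These letter matches describe the windows only, and no genome sequence was used for the regions outside promoter windows.

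Total depth was 20.8 to 59.97 M tags per library and the peak lists held 46454 to 66117 peaks. The caller's peak width was 173 bp in 9 libraries, 132 bp for naive cells and 136 bp for high_to_high replicate 2. The share of tags inside peaks was 15.7% in antigen-experienced cells, 9.07% in effector cells, 9.00 to 12.5% at day 9 and 15.0% in naive cells. The values also spread less in effector cells: over all 23471 always-open regions the quartiles of the centred log2 level were -0.77 and 0.72 in effector cells, against -0.99 and 1.06 in naive cells. The part of this narrower spread in d was examined only by scaling. With all libraries put on 1 distribution (quantile scaling), 1246 of the 1825 regions (68.3%) still had a difference of at most -1, among 1439 such regions. In a bulk library, fewer accessible cells and less accessibility per cell cannot be told apart. Regions in or within 1 kb of the T cell genes Cd3e and Cd8b1 had peaks in 11 of 11 libraries, and those of Cd8a in 3 (antigen-experienced, high_to_high replicate 2 and naive). Trac was not in the gene table. Of markers of other cells, Cd79a, Lyz2, Csf1r, Adgre1 and Ncr1 had no region so placed in any of the 11 libraries, whereas Pax5, Spi1, Cd4 and Zbtb7b had regions in 11. Foxp3 had a region in 6 (14.2 in effector and 4.93 in naive cells), Ms4a1 in effector cells alone (3.38) and Klrb1c in naive cells alone.

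The falling regions had a median normalized tag count of 57.3 in antigen-experienced cells, 10.7 in effector cells and 55.0 in naive cells. At day 9 their medians were 31.3, 32.5 and 30.0 in the low_to_high libraries, 28.7 and 28.8 in the high_to_high libraries and 33.7, 38.1 and 33.1 in the low_to_low libraries. The regions were thus weakest in effector cells, intermediate in 8 of 8 day 9 libraries and strongest in both libraries taken directly from the spleen. Over all 23471 always-open regions the medians were 33.7 in antigen-experienced, 16.3 in effector and 28.1 in naive cells, and 19.8 to 28.3 at day 9. The effector value lay below that of all always-open regions, and the other 10 lay above it. The median d was -1.31 (lowest -3.48), and the deposited naive value was a median 4.37 times the effector value.

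**Figure D1:**
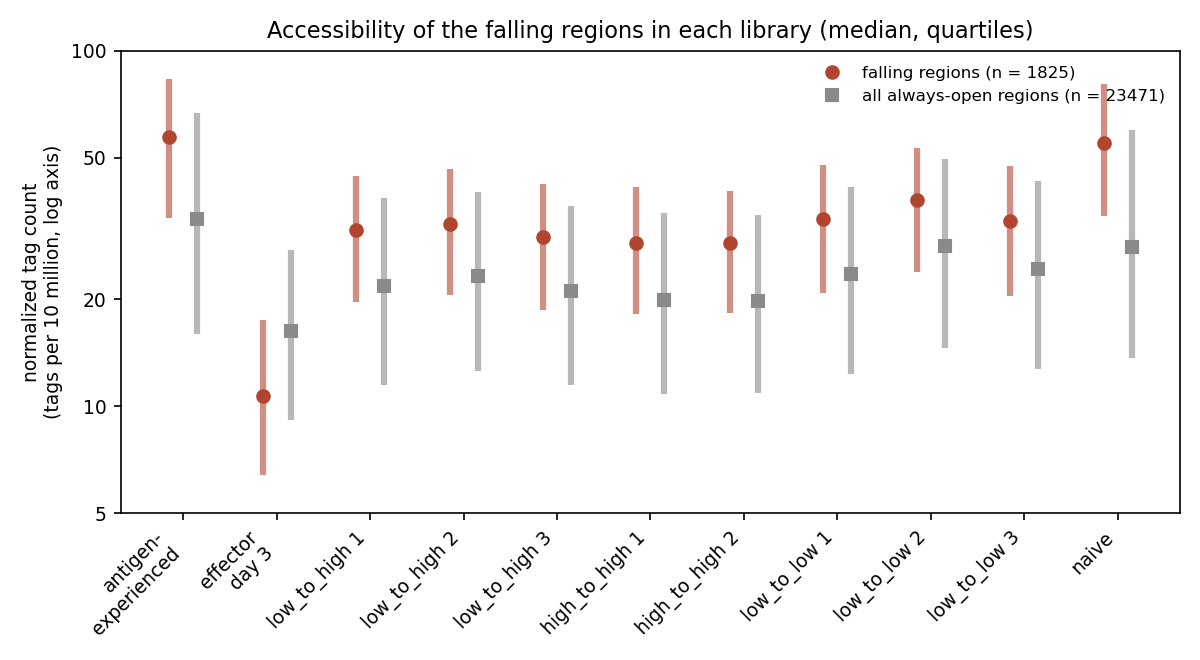
Normalized tag count (tags per 10 M, log axis) of the 1825 falling regions (circles) and of all 23471 always-open regions (squares) in each of the 11 libraries, with the median as a point and the quartiles as a bar. The falling regions are lowest in effector cells (median 10.7), intermediate at day 9 (28.7 to 38.1) and highest in antigen-experienced and naive cells (57.3 and 55.0).

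Near the threshold the regions were ordinary. Just inside it, a region within Armh3 had 7.61 in effector cells and 27.2 in naive cells, and 1 near Gm12185, a predicted gene, had 9.87 and 34.6. The third, with no gene within 100 kb, had 8.65 in effector cells and 30.6 in naive cells. Just outside it, the promoter of Ost4, a subunit of the oligosaccharyltransferase, had 29.3 in effector cells and 98.2 in naive cells. Regions within Herc1 and Ccdc136 had 4.04 and 5.08 in effector cells, against 15.5 and 18.9 in naive cells. All 6 had a d equal to the threshold when rounded to 2 decimals.

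Most falling regions lay away from promoters. Of the 1825, 264 (14.5%) overlapped a promoter window, 856 (46.9%) lay elsewhere in the span of a protein-coding gene, 608 (33.3%) lay within 100 kb of one and 97 (5.32%) had none within 100 kb. Over all 23471 always-open regions the shares were 29.1, 40.2, 28.3 and 2.49% in the same order. Among the 2400 always-open regions with d of at least 1, 10.0% were at promoters, and among the 19246 between the thresholds 32.8% were. Median width was 263 bp, against 277 bp for all always-open regions, and 98.8% of the falling regions held a single peak in each library that called them, against 97.8%. They lay on 20 of 20 chromosomes examined, and their share of a chromosome's always-open regions ran from 6.58% on chromosome 7 to 11.1% on chromosome 13.

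The lowest d belonged to a region at chr1:43880444-43880785 (mm10, as deposited), between genes and 52.6 kb from Uxs1, which encodes an enzyme of UDP-xylose synthesis. It had a normalized tag count of 62.8 in antigen-experienced cells, 3.2 in effector cells and 75.6 in naive cells. At day 9 it had 51.2, 42.4 and 62.4 in low_to_high, 48.2 and 41.5 in high_to_high, and 42.8, 47.7 and 40.2 in low_to_low libraries. It was weak in effector cells and stood open in all 8 day 9 libraries. A region 39.3 kb from Pdcd1, which encodes the inhibitory receptor PD-1, was also weakest in effector cells (chr1:94091846-94092061). It had 79.3 in antigen-experienced cells, 3.38 in effector cells and 59.8 in naive cells. At day 9 it had 42.4, 39.0 and 44.4 in low_to_high, 38.9 and 35.7 in high_to_high, and 39.6, 43.4 and 37.2 in low_to_low libraries.

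Some other regions with a low d stayed well under the splenic level at day 9. The Cnr2 promoter region printed above (chr4:135911597-135911888), at the gene of the cannabinoid receptor CB2, had 65.6 in antigen-experienced cells, 3.57 in effector cells and 68.2 in naive cells. It had 19.4, 15.5 and 12.0 in low_to_high, 19.2 and 20.9 in high_to_high, and 25.1, 16.1 and 12.0 in low_to_low libraries. The 3 day 9 groups overlapped, and 8 of 8 values were between the effector and the splenic ones. A region 12.7 kb from Msl2, a gene of the MSL histone acetyltransferase complex, had 72.0 in antigen-experienced, 4.32 in effector and 84.6 in naive cells, and 14.6 to 23.8 over the 8 day 9 libraries. The remaining members of the 10 with the lowest d lay near or in Efr3a, Kif1b (a kinesin), Pakap, Zfp879, Rbm33 and Fgd2. Their effector values were 3.29 to 6.02, against 67.3 to 105.1 in naive cells. On the centred log2 scale, their day 9 means stood at 30.2 (Kif1b) to 100% (Efr3a) of the way from the effector to the naive level.

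The Txk promoter region (chr5:72752699-72752939) had the highest naive value of the 5 printed promoters. Txk is a TEC-family kinase of T cells that acts below the T cell receptor. The region had 113.3 in antigen-experienced, 13.0 in effector and 124.5 in naive cells. It had 65.7, 63.9 and 64.8 in low_to_high, 56.9 and 55.4 in high_to_high, and 65.3, 67.5 and 67.7 in low_to_low libraries. Day 9 values were close together and about midway between the effector and splenic ones on the deposited scale. The regions at Gm20559 and Gm40441 had 6.96 and 10.2 in effector cells, against 77.7 and 102.9 in naive cells.

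By the number of falling regions per gene, 1179 genes had 1, 193 had 2, 45 had 3, 4 had 4 and 2 had 5, with 1423 genes in all. Scml4, a Polycomb-related gene, had 5 of its 6 always-open regions in the set. Gtf2i, which encodes the transcription factor TFII-I, had 5 of 8. Filip1l had 4 of 9, Rere, an atrophin-family corepressor, 4 of 8, Ppm1h, a protein phosphatase, 4 of 11 and Tbc1d1 4 of 11. Regions of 1 gene differed in level. The Scml4 region with the lowest d (9.1 kb outside the gene) had 47.9 in antigen-experienced, 4.61 in effector and 54.4 in naive cells, and 6.92 to 12.8 at day 9. The next, inside the gene, had 109.9 in antigen-experienced, 19.9 in effector and 106.1 in naive cells, and 48.7 to 75.7 at day 9.

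Day 9 values can be placed between the effector and naive values of each region, on the centred log2 scale, as a percent of that distance. This uses the values that chose the regions and is a description. The median was 60.6% (quartiles 37.6 and 84.5%). The day 9 mean was under 25% of the way in 242 regions, 60 of which were below the effector level, and at 25 to 50% in 460. It was at 50 to 75% in 510, at 75 to 100% in 357 and at or above the naive level in 256. Effector values were below and naive values above 8 of 8 day 9 libraries in 1133 regions (62.1%), against 12.2% of all always-open regions, a share that the rule itself raises. On quantile-scaled values, chosen after the data were seen, the median was 75.5%.

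Position went with this share. Promoter regions stood at a median of 39.5%, regions inside gene spans at 63.9%, regions between genes at 64.6% and regions without a gene within 100 kb at 69.5%. Promoter regions were also the strongest, with a median normalized tag count of 20.6 in effector cells and 82.0 in naive cells, against 8.97 and 48.3 for regions between genes. The share was 52.2% for d of -1.5 to -1 (1185 regions), 69.6% for -2 to -1.5 (412), 71.6% for -2.5 to -2 (158) and 76.0% for d of at most -2.5 (70). Position and d overlap, since promoters were 19.3% of the regions with d of -1.5 to -1 and 3.16 to 6.31% of those with lower d. Their parts were not separated. Since the effector level is a part of d and of the share, no test is given.

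**Figure D2:**
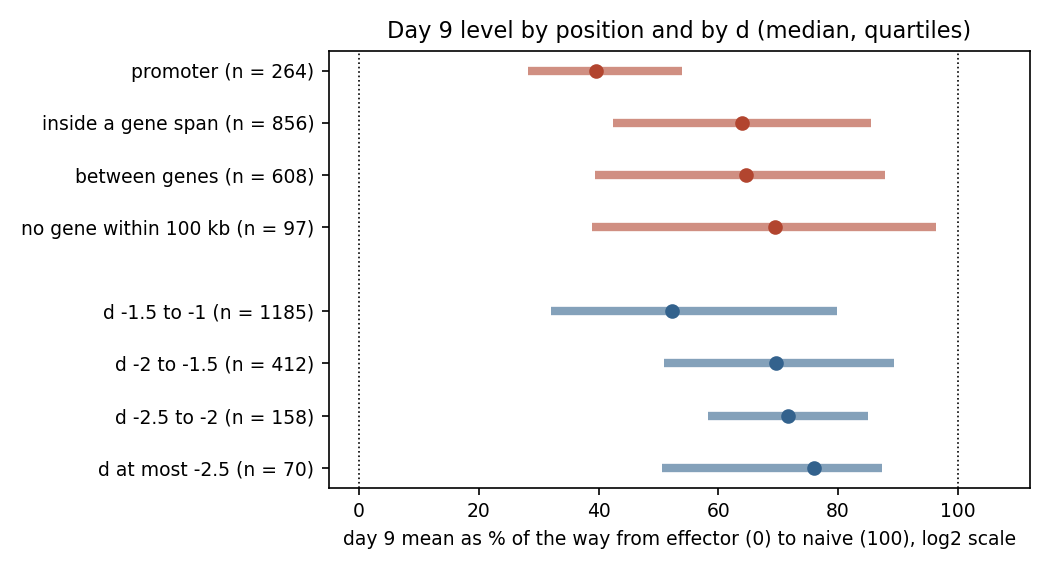
Mean day 9 level of the falling regions as a percent of the distance from the effector level (0) to the naive level (100) on the centred log2 scale, by position and by d, with the median as a point and the quartiles as a bar. Promoter regions stand lowest, at 39.5%, and regions with d of at most -2.5 highest, at 76.0%.

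Antigen-experienced and day 9 values did not enter d, although the choice required a peak in each of those libraries. With 1 antigen-experienced library there is no test, and the values are set against those of all always-open regions. Antigen-experienced cells were above 8 of 8 day 9 libraries, on the centred scale, in 1024 of the 1825 regions (56.1%), against 34.7% of all always-open regions. They were below 8 of 8 in 217 regions (11.9%), against 25% of all. The median difference, antigen-experienced minus the day 9 mean, was 0.27 on the log2 scale for the falling regions and 0.08 for all. It was 0.11 for regions between the thresholds and -0.62 for those with d of at least 1. The difference was at least 1 in 85 falling regions (4.66%), against 0.852% of all, and at most -1 in 17 (0.932%), against 4.62% of all. On quantile-scaled values the median difference was 0.13 for the falling regions and 0.03 for all, and 708 regions (38.8%) were above 8 of 8, against 22.6% of all. The splenic cells, naive and antigen-experienced, also had the higher shares of tags in peaks given above, and the part of that in these values was tested only through the scaling. The strongest peak in or within 1 kb of Pax5, a B cell factor, had 59.7 in antigen-experienced cells, against 15.9 to 23.0 at day 9 and 17.5 in naive cells, while Cd79a had no region there. The part of B cells in these values was not tested.

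**Figure D3:**
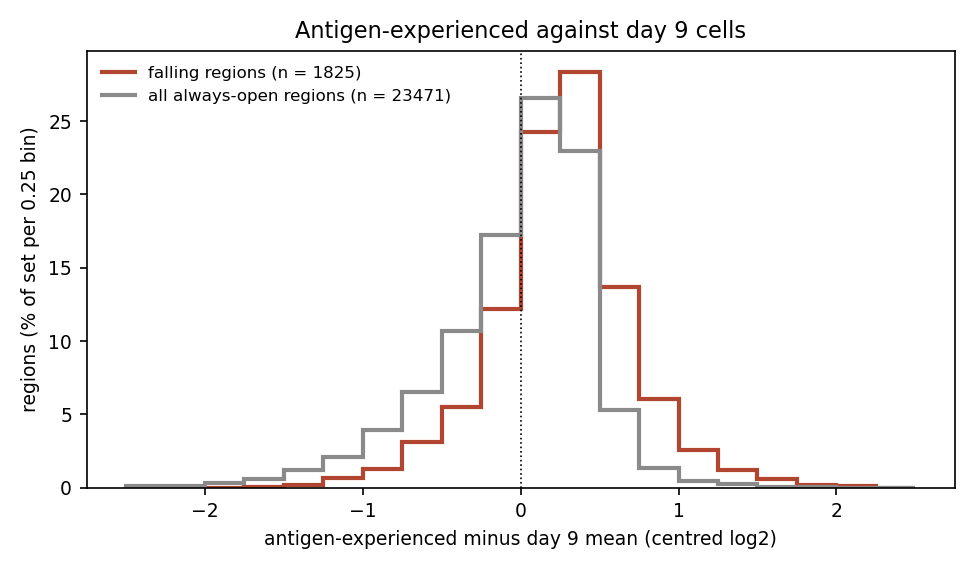
Distribution of the difference of antigen-experienced minus mean day 9 level (centred log2, bins of 0.25) over the 1825 falling regions and all 23471 always-open regions, as a percent of each set. The falling regions sit further right, with a median of 0.27 against 0.08.

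The difference was 2.01 for a region inside Flt3, the receptor tyrosine kinase of early blood progenitors (chr5:147340828-147341468). That region had 66.7 in antigen-experienced, 5.17 in effector and 59.2 in naive cells. It had 17.4, 13.2 and 7.2 in low_to_high, 12.6 and 9.5 in high_to_high, and 11.2, 9.8 and 6.23 in low_to_low libraries. All day 9 values stayed far below the antigen-experienced one, and the 3 groups overlapped. Regions near Adipoq (difference 2.01), which encodes adiponectin, and inside Dtx1 (1.96), a Notch-linked ubiquitin ligase, followed. The Dtx1 region had 51.6 in antigen-experienced, 11.9 in effector and 63.4 in naive cells, and 6.09 to 11.7 at day 9, below the effector value in every library. Regions inside Kif1b (1.82) and Nup153 (1.79), a nuclear pore gene, completed the 5 largest differences.

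At the other end, the region inside Crem, which encodes a cAMP-responsive transcription factor, had a difference of -1.48. It had 17.3 in antigen-experienced, 3.85 in effector and 15.1 in naive cells. At day 9 it had 28.9, 32.5 and 34.8 in low_to_high, 32.3 and 29.2 in high_to_high, and 29.5, 49.6 and 38.0 in low_to_low libraries. Every day 9 library was above both splenic ones. A region inside Grik4, a glutamate receptor gene, had the lowest difference of the 1825, with 12.1 in antigen-experienced cells and 21.8 to 27.5 at day 9. Regions near Mmp15 (-1.41), inside Cc2d2b (-1.28) and 52.5 kb from Foxq1 (-1.27) were the other members of the lowest 5.

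Genes of the naive and memory programme held 31 falling regions among 138 always-open ones (22.5%), in 20 of the 39 genes of the list. The share for all always-open regions was the 7.78% of the rule, which used the same values, so nothing is read from the difference. The same holds for the lists that follow. Antigen-experienced cells were above all 8 day 9 libraries in 27 of the 31, against 56.1% of all falling regions. The median difference was 0.62, against 0.27 for all falling regions. Lef1, which encodes the partner factor of TCF-1, had a region 52.7 kb away (chr3:131057281-131057612) with 67.1 in antigen-experienced, 4.7 in effector and 47.4 in naive cells. It had 25.9, 30.9 and 31.0 in low_to_high, 24.2 and 25.3 in high_to_high, and 35.8, 41.6 and 29.4 in low_to_low libraries. The YFP-high and YFP-low libraries overlapped there, with a limma log2 difference of -0.14 that was not called. A region inside Foxp1, a quiescence factor, had 45.8 in antigen-experienced, 4.7 in effector and 40.5 in naive cells, and at most 19.6 at day 9. A region 23.1 kb from Klf2, which drives S1pr1, had 53.9 in antigen-experienced, 7.99 in effector and 51.8 in naive cells, and 15.0 to 27.0 at day 9. The regions near Nsg2 and inside Zeb1, a zinc finger repressor of memory cells, had 5.83 and 16.3 in effector cells, against 56.0 and 102.6 in naive cells.

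T cell receptor signalling genes held 23 falling regions among 123 always-open ones (18.7%, beside 7.78% of all always-open regions), in 15 of 38 genes. The median difference of antigen-experienced minus day 9 was 0.32, near the 0.27 of all falling regions. Antigen-experienced cells were above all 8 day 9 libraries in 14 of the 23, against 56.1% of all falling regions. Cblb, an E3 ligase that restrains T cell activation, had a region with 104.2 in antigen-experienced, 9.02 in effector and 90.2 in naive cells, and 47.3 to 63.0 at day 9. A region inside Skap1, an adaptor of integrin activation, had 4.14 in effector cells and 42.9 in naive cells. Of T cell identity genes, 4 of 50 always-open regions (8%) were in the set, near or in Tox, Cd28, Runx1 and Cd8a. The Cd8a region, 2.6 kb from the gene, had 80.1 in antigen-experienced, 26.3 in effector and 89.9 in naive cells, and 25.5 to 37.9 at day 9. On the deposited scale its day 9 values stayed near the effector value.

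Effector genes held 8 falling regions among 81 always-open ones (9.88%), near the 7.78% of all always-open regions. The median d over all 81 was 0.41. A region 1.5 kb from Prf1, which encodes perforin, had 104.2 in antigen-experienced, 10.7 in effector and 79.2 in naive cells (chr10:61306198-61306456). It had 50.7, 40.5 and 37.7 in low_to_high, 43.0 and 39.4 in high_to_high, and 50.5, 48.1 and 36.7 in low_to_low libraries. It was lowest in effector cells, and the 3 day 9 groups overlapped. Regions near Fasl, the death ligand, Eomes, a T-box factor, and at the promoter window beside Batf, an AP-1 family factor, had 8.27 to 15.0 in effector cells and 45.6 to 78.8 in naive cells. The 8 regions stood at a median of 89.5% of the way to the naive level at day 9.

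Inhibitory receptor and exhaustion genes held 6 falling regions among 36 (16.7%, beside 7.78% of all always-open regions). Their median stood at 103% of the way. Besides the Pdcd1 region, regions inside Nr4a3, an orphan nuclear receptor gene, and near Tigit, an inhibitory receptor gene, had 13.6 and 7.14 in effector cells, against 83.8 and 45.6 in naive cells. At day 9 they had 47.1 to 63.8 and 37.0 to 58.3. The region inside Tox, a factor of T cell development and exhaustion, differed from these. It had 58.2 in antigen-experienced, 6.11 in effector and 65.6 in naive cells, and 12.2 to 17.3 at day 9.

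Trafficking genes held 15 falling regions among 81 (18.5%) and cytokine receptor and signalling genes 13 among 90 (14.4%), beside 7.78% of all always-open regions. A region 20.8 kb from Arhgap15, a Rac GTPase-activating gene, had 128.2 in antigen-experienced, 10.3 in effector and 101.0 in naive cells, and 21.6 to 38.1 at day 9. Regions near the chemokine receptor genes Cxcr4 and Ccr9 had 7.52 and 12.6 in effector cells, against 60.6 and 79.7 in naive cells, and 29.8 to 42.5 and 40.3 to 69.8 at day 9. Regions inside Tgfbr2, the TGF-beta receptor gene, and Jak1 and Stat4, genes of cytokine signalling, had 5.92, 18.6 and 12.3 in effector cells, against 49.0, 105.1 and 68.5 in naive cells. A region near Tgfbr3, a co-receptor gene, had 9.59 in effector cells and 60.8 in naive cells.

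Genes that brake proliferation held 19 falling regions among 105 (18.1%), with examples near Slfn2 and Tnfaip3, which restrain T cell activation. These had 12.6 and 12.6 in effector cells, against 98.1 and 84.7 in naive cells. Cell cycle genes held 3 among 51 (5.88%), near or in Ccnd2, Rb1 and Ccnd3. These had 4.51, 5.45 and 24.7 in effector cells, against 19.9, 21.9 and 89.5 in naive cells. Marker genes of other cells were counted in the same way, beside the 7.78% of all always-open regions. B cell markers held 0 of 12 always-open regions, myeloid markers 2 of 12 (16.7%, both assigned to Cebpb, 1 of them 87.4 kb away), natural killer markers 1 of 10 (10%, Tyrobp) and CD4 and regulatory T cell markers 1 of 10 (10%, Cd40lg). Of the falling regions assigned to any of the gene lists, 0 were called in a day 9 comparison by limma, at an adjusted p under 0.05, beside 20 of all 1825. At so small a share, lists of this size may hold none, so nothing is read from the 0. With the replicate number as a block, the Tox region was called for high_to_high against low_to_low (0.67, adjusted p = 0.0423).

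At day 9, YFP-high cells were set against YFP-low cells in 34383 regions with a peak in all 8 libraries, all 1825 falling regions among them. Limma called 11 falling regions higher in YFP-high cells and 0 lower, at an adjusted p under 0.05. That is 0.603% higher, against 0.329% of all tested regions, and 0.00291% of all were lower. At an unadjusted p under 0.05, 133 falling regions were higher and 29 lower (8.88%), against 8.07% of all tested regions in either direction. The median log2 difference was 0.02 over the falling regions and -0.00 over all tested regions. On the deposited scale without centring, 72 falling regions were called (7 higher, 65 lower), against 2022 of all 34383 (79 higher, 1943 lower). The median of all regions was -0.22 there. YFP-high libraries had 9.00 to 10.2% of tags in peaks and YFP-low libraries 10.4 to 12.5%, so the share is confounded with the comparison. With it in the model, 0 falling regions and 0 of all 34383 were called, and the 11 differences were 0.00 to 0.93, against 0.44 to 0.98 without it. Those of Enpp1 (0.93) and Mosmo (0.56) were larger with it and the other 9 smaller. The count of falling regions called was 1 without the trend in eBayes, against 12 of all regions. It was 17 over the regions with a peak in all 11 libraries, against 64 of those 23471. With the replicate number as a block it was 20, against 213 of all. Without low_to_low replicate 2 or 3 it was 2, against 15 or 29 of all. Without high_to_high replicate 1 or 2 it was 4 or 6, against 44 or 66 of all. It was 17 without low_to_high replicate 2 and 21 without low_to_low replicate 1, against 186 and 210 of all.

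In high_to_high against low_to_low, 17 falling regions were higher and 0 lower, 0.932% against 0.558% of all tested regions that were higher and 0.0378% that were lower. At an unadjusted p under 0.05, 130 were higher and 46 lower (9.64%), against 9.92% of all tested regions in either direction. Without centring the count was 372 (14 higher, 358 lower), against 7410 of all 34383 (149 higher, 7261 lower). The median of all regions was -0.30 there. With the in-peak share in the model the count was 0, as it was over all regions. The 17 differences were then 0.27 to 1.43, against 0.68 to 1.28 without it, with those of Enpp1 (1.43), Asb1 (1.30) and Rbfox2 (0.93) larger and the other 14 smaller. With the replicate number as a block the count was 26, against 374 of all tested regions. It was 6 and 9 without low_to_low replicates 2 and 3, against 68 and 117 of all. Without low_to_low replicate 1 it was 30, against 315 of all. Without high_to_high replicate 1 or 2 that group held 1 library. The median log2 difference over the falling regions was then 0.02 or 0.04, against 0.02 with both. Both comparisons called 8 of the same regions, and 20 were called in either. Both rest on the same low_to_low libraries. Of the 20, 13 lay within gene spans, near the 59.2% of all falling regions. A promoter window was overlapped by 1 of the 20, beside 14.5% of all falling regions. Antigen-experienced cells were above 8 of 8 day 9 libraries in 16 of the 20, against 56.1% of all falling regions. At day 9 the 20 had a median centred log2 level of -0.63, against 0.48 for all falling regions. Not all were weak, since the Ccnt2 region stood at 0.81.

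A region inside Epb41l2, which encodes a membrane skeleton protein (chr10:25387314-25387685), had 31.7 in antigen-experienced, 3.76 in effector and 33.8 in naive cells. It had 9.87, 8.13 and 9.84 in low_to_high, 9.49 and 14.6 in high_to_high, and 6.27, 5.26 and 5.37 in low_to_low libraries. The YFP-high and YFP-low libraries did not overlap. The log2 difference was 0.98 ± 0.18 (SE, limma, adjusted p = 0.00403) for YFP-high against YFP-low and 1.24 ± 0.21 (adjusted p = 0.00141) for high_to_high against low_to_low. A region inside Arhgap17, a GTPase-activating gene (chr7:123354921-123355178), was called in both comparisons whichever library was left out. It had 57.5 in antigen-experienced, 9.87 in effector and 52.1 in naive cells. It had 37.7, 28.2 and 37.2 in low_to_high, 38.9 and 34.5 in high_to_high, and 25.1, 26.9 and 22.1 in low_to_low libraries. All 5 YFP-high values were above all 3 YFP-low values, with differences of 0.71 ± 0.12 (limma, adjusted p = 0.00188) and 0.85 ± 0.14 (adjusted p = 0.00147).

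A region 16.3 kb from Naa30, the catalytic gene of an N-terminal acetyltransferase, had the largest difference in high_to_high against low_to_low (chr14:49155634-49155929). It had 26.2 in antigen-experienced, 4.04 in effector and 36.2 in naive cells. At day 9 it had 11.5, 7.22 and 8.88 in low_to_high, 15.1 and 14.6 in high_to_high, and 6.76, 6.93 and 7.3 in low_to_low libraries. The high_to_high libraries stood above the rest, and the low_to_high values ran into those of low_to_low. The difference was 1.28 ± 0.20 (limma, adjusted p = 0.000957) there and 0.81 ± 0.19 (adjusted p = 0.0491) for YFP-high against YFP-low. The region inside Enpp1, an ectonucleotidase gene, had 7.03 in antigen-experienced, 4.14 in effector and 26.4 in naive cells. At day 9 it had 9.87, 11.6 and 6.48 in low_to_high, 15.3 and 10.8 in high_to_high, and 5.29, 7.88 and 5.8 in low_to_low libraries. Its antigen-experienced value, unlike that of the other 7 regions called in both, lay within the day 9 range on the deposited scale. On the centred scale it was 0.82 below the day 9 mean. The difference was 0.88 ± 0.18 (limma, adjusted p = 0.0181) for YFP-high against YFP-low.

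The other regions called in both comparisons were inside Zfand3 (0.76 for YFP-high against YFP-low), Ctnnbl1 (0.76), a spliceosome-linked gene, and Rbm33 (0.64), an RNA-binding protein gene, and near Spag16 (0.62). The Ctnnbl1 region had 18.3, 15.7 and 14.4 in low_to_high, 16.7 and 17.8 in high_to_high, and 12.2, 10.6 and 10.3 in low_to_low libraries. Its effector value was 14.8 and its naive value 63.6. On the deposited scale the day 9 values straddled the effector value and stood far under the naive one, and on the centred scale their mean was below the effector level. For YFP-high against YFP-low alone, limma also called the Trpm1 promoter region printed above (0.81), and regions inside Ccnt2 (0.46), a cyclin of transcription elongation, and Mosmo (0.44), a modulator of Hedgehog signalling. The Trpm1 region had 15.9, 12.5 and 11.5 in low_to_high, 11.6 and 14.7 in high_to_high, and 11.7, 8.6 and 5.8 in low_to_low libraries. Its highest low_to_low value fell inside the YFP-high range. Leaving out 1 library at a time removed several calls for YFP-high against YFP-low. The Naa30 and Mosmo regions stayed called in 2 of 8 omissions, and the Trpm1, Rbm33 and Spag16 regions in 3. The rest stayed called in 4 to 8.

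**Figure D4:**
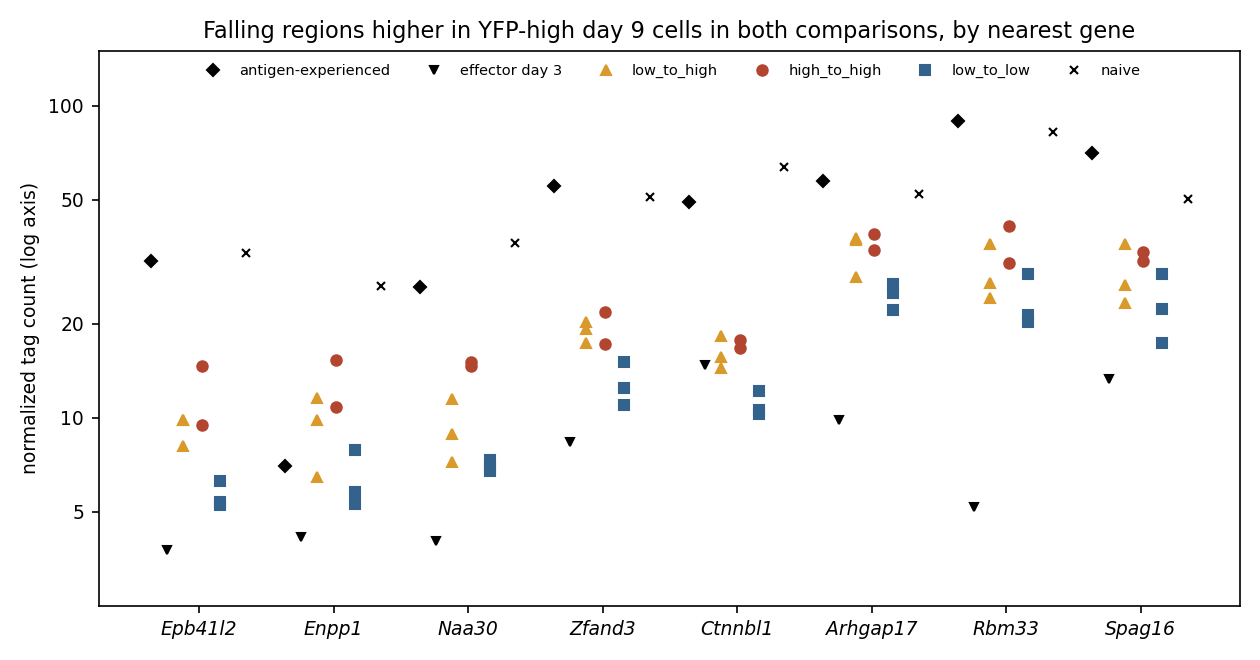
Normalized tag count (log axis) of the 8 falling regions that limma called higher in both YFP-high against YFP-low and high_to_high against low_to_low, named by nearest gene, with 1 point per library. Day 9 values lie mostly between the effector (triangle down) and naive (cross) values, and in 4 of the 8 regions the low_to_low libraries lie below all 5 YFP-high libraries.

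The regions called for high_to_high against low_to_low alone numbered 9. They lay in or near Kif1b (0.98 ± 0.22, limma, adjusted p = 0.023), Fbln1 (0.94), an extracellular matrix gene, Ttc27 (0.94), Asb1 (0.94), Ramp3 (0.89), Rbfox2 (0.78), a splicing regulator gene, Mrpl3 (0.74) and Klhl2 (0.68), and 1 had no gene within 100 kb. The Kif1b region (chr4:149282358-149282785) had 95.4 in antigen-experienced, 6.02 in effector and 105.1 in naive cells. It had 23.2, 13.7 and 13.2 in low_to_high, 30.6 and 20.3 in high_to_high, and 20.5, 14.7 and 11.4 in low_to_low libraries. The lower high_to_high value fell just under the highest low_to_low one. Each of these 9 regions lost its call in some omissions of 1 library. Over the omissions the 9 differences stayed positive, at 0.58 to 1.26.

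In low_to_high against low_to_low, limma called 0 falling regions, against 0.032% of all tested regions. At an unadjusted p under 0.05 there were 127 (106 higher, 21 lower, 6.96%), against 5.56% of all tested regions. Same-numbered low_to_high and low_to_low libraries varied together, and with the replicate number as a block limma called 5 falling regions, all higher, against 0.16% of all regions higher. These were the regions in Epb41l2 (0.80, adjusted p = 0.0427), at the Trpm1 promoter (0.76, adjusted p = 0.0382), and in Zfand3 (0.70, adjusted p = 0.0212), Ctnnbl1 (0.68, adjusted p = 0.0382) and Arhgap17 (0.62, adjusted p = 0.00972). All 5 were among those called for YFP-high against YFP-low, which holds the same libraries. Over the 20 regions called above, low_to_high minus low_to_low was 0.22 to 0.80. Those libraries are part of the earlier comparisons, so this is no separate evidence. Without the block, 7 falling regions were called when low_to_low replicate 1 was left out, against 56 of all tested regions. When low_to_high replicate 2 was left out, 1 was called, against 9 of all.

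In low_to_high against high_to_high, limma called 0 falling regions and 0% of all tested regions. At an unadjusted p under 0.05 there were 77 falling regions (37 higher, 40 lower, 4.22%), against 5.09% of all. The lowest p belonged to the Naa30 region (-0.78 ± 0.20, limma, adjusted p = 0.923).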

How the data were processed

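The deposited files are 11 ATAC-seq peak lists of mouse CD8 T cells, called on each library alone. Peaks were called with HOMER 4.10 (findPeaks) without a control library, at least 4-fold over the surrounding 10 kb, at a false discovery rate of 0.001 and a local p-value of at most 1e-04, per the file headers. Bowtie2, DESeq2 and build mm10 are also listed in the submitters' processing notes, which give no role for each. The signal of a peak as deposited is its normalized tag count, tags per 10 M, and the fold over local signal was also deposited by the authors as a ratio. Values of weak regions are missing where no peak was called.

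Overlapping peaks (1 bp or more) of the 19 autosomes and X were merged, and a region took its highest value per library (Python 3.11.15, pandas 2.3.3, numpy 2.4.6). The rule for d is given with the results. The members and gene lists were chosen with earlier results of these data known. Genes are the nearest RefSeq protein-coding span within 100 kb, which does not show what a region regulates. Promoter windows may belong to a noncoding gene.

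Tests between day 9 groups used limma 3.58.1 (R 4.3.3), a linear model with a trended eBayes prior, on values of log2(normalized tag count + 1), each library centred on its median, over 34383 regions, with Benjamini-Hochberg adjustment over all of them. Fold changes on this scale understate changes of low values. The 5 YFP-high and 3 YFP-low libraries made 2 groups, and the other comparisons 1 model of 3 groups. The scripts were tested on simulated data. Deviations of same-numbered low_to_high and low_to_low libraries correlated at 0.298, 0.136 and 0.161, so the block value is given beside that comparison. For high_to_high the same-numbered correlations ran from -0.041 to -0.001. Comparisons that involve a single library were described without a test. Named regions are the 10 with the lowest d, up to 10 called per comparison, up to 4 per gene list, the 5 largest and 5 smallest differences of antigen-experienced minus day 9, 3 on each side of the threshold, the genes with most members and 5 promoter sequences, for which chromosome 18 was left out. Mosmo, Rbfox2, Mrpl3 and Klhl2, beyond this rule, were named to complete the calls after their values were seen. No genome was used here, so no sequence outside promoter windows was read. Some genes that the naming rule selects are not reported here.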

Additional observations from a re-analysis of the deposited data

Results flagged for a closer look

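The median level of the falling regions and the 20 falling regions called at day 9 were screened for a single library far from the others of its group, in the 5 YFP-high libraries. Of these 21 values 1 stood out. The Epb41l2 region had a normalized tag count of 14.6 in high_to_high replicate 2, against 9.87 in the next highest YFP-high library, a gap that is 0.731 of the whole range (critical value 0.71). Chance alone marks about 1 in 20 groups.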

How the results depend on the processing

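Counts of falling regions called, in the order YFP-high against YFP-low, high_to_high against low_to_low, low_to_high against low_to_low and low_to_high against high_to_high, were 11, 17, 0 and 0. They were 72, 372, 0 and 0 on the deposited scale, against 2022, 7410, 0 and 1 of all tested regions. Over the regions with a peak in all 11 libraries the first was 17, against 64 of those 23471. Without the trend in eBayes it was 1, against 12 of all tested regions. With a minimum mean of 10 the third was 1, against 13 of 26682 regions. With the replicate number as a block they were 20, 26, 5 and 0, against 213, 374, 55 and 4 of all tested regions. With the in-peak share of tags in the model, chosen after seeing the data, they were 0 in each. Leaving out each library gave 2 to 21, 3 to 30, 0 to 7 and 0. Other scalings and pseudocounts stayed within 1.5 times. Of 468 repeats of single called regions, 328 stayed called, 140 lost the call and none changed direction.

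The 1825 regions became 10384 without centring, 640 at d of at most -1.5 and 772 with peaks at least 6-fold over local signal. Without centring, antigen-experienced cells were above all 8 day 9 libraries in 1620 regions (88.8%), against 71.5% of all always-open regions. They were at least 1 above the day 9 mean in 528 (28.9%), against 10.3% of all. At a threshold of 0.5 the second count was 445 (24.4%), against 7.53% of all. Leaving out each day 9 library gave 1027 to 1085 and 83 to 89. The median position at day 9 was 57.0% with pseudocount 5 and 75.5% with quantile scaling, both chosen after seeing the data, and 59.5 to 61.1% without each library. The cause of these shifts was not tested. Single reference libraries and peak calling per library limit what weak regions can show.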
